A study of Homo sapiens with 12 samples.

Results

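High glucose was compared with low glucose in VPA-treated cells, gene by gene, from RNA-seq counts. The cells were HepG2, an established human liver cancer cell line that keeps many hepatocyte functions, and valproic acid (VPA) is an inhibitor of histone deacetylases. Medium with 5.5 mM glucose (LG) or 20 mM glucose (HG) was kept on the cells for 48 h, after which 1 mM VPA was present for 12 h in LGV and HGV. Each of the 4 conditions had 3 libraries, and the 6 libraries of HGV and LGV enter the comparison, so both sides carry VPA and differ, by their labels, in glucose. Any gene averaging 10 reads or more across these 6 libraries was a member, which took in 16208 of the 16389 genes of the table. At the edge of that rule, TUBA3D, TSSK3 and RP11-463O9.1 came in with a mean of 10 reads, and RP11-739N20.2, AC083949.1 and RP11-73M18.7 stayed out with a mean of 9.83 reads. The labels name no separate cultures behind the replicate libraries, so the p-values measure the spread between these libraries, which may be technical.

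Hepatocytes take up glucose freely and pass on a sugar signal through the paired transcription factors MondoA or ChREBP and MLX, whose best known target is TXNIP, an arrestin-fold protein that restrains glucose uptake. Glucose also feeds the N-glycans that secreted proteins carry, and shortage of it is a classical trigger of the unfolded protein response (UPR), in which chaperones of the endoplasmic reticulum (ER) are induced. The liver cell secretes most complement, coagulation and acute phase proteins of plasma, and it makes cholesterol and fatty acids under the control of SREBP factors.

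Total counts ran from 29798442 to 40218012 in HGV and from 30455877 to 36709673 in LGV, and 3 reads, taken as the smallest count distinct from none, stood for 0.0713 to 0.0974 CPM (counts divided by the library total after scaling by TMM, a trimmed mean of ratios between libraries, and brought to a common size), a limit that covers counting error only. The root mean square log2 difference between libraries was 0.446 to 0.663 between the groups, 0.233 to 0.346 within HGV and 0.222 to 0.348 within LGV. HGV replicate 2 and LGV replicate 1 stood farther from the other libraries of their groups than these did from each other. The summed level of the 10 hepatocyte markers was 46310 to 48127 CPM in LGV and 55554 to 69920 CPM in HGV. Of the 10, 4 (TTR, TF, APOA1 and FGB) were called higher, or 2 without HGV replicate 3 or LGV replicate 3. The share called was 40.0%, beside 40.7% of all genes called in either direction and 21.2% called higher. Of markers of other cells, CD14 of leukocytes had 2.59 to 3.34 CPM in HGV and 0.630 to 1.41 CPM in LGV. Of the 2 endothelial markers tested, CDH5 had 0.999 to 1.5 CPM in HGV and 0.195 to 0.510 CPM in LGV. The other, VWF, had groups that overlap, with 2.33 to 3.85 CPM in HGV and 2.05 to 2.58 CPM in LGV, and was not called (0.40). The 2 fibroblast or stellate markers tested went in opposite directions, PDGFRB, which makes up nearly all of their sum (26.3 to 32.9 CPM in HGV and 32.2 to 40.5 CPM in LGV), called lower. COL1A1 was called higher, with groups that overlap. The sum of the cholangiocyte markers was 443 to 532 CPM in HGV and 349 to 416 CPM in LGV. PTPRC, CD68, PECAM1, COL3A1, DCN and KRT7 are not among the genes of the counts, so they could not be tested. The part of these levels in the results was not tested, and in a bulk culture a change in the number of cells of a kind cannot be told apart from a change in RNA per cell.

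Differences between high and low glucose were broad with VPA present. With edgeR's quasi-likelihood test at a false discovery rate (FDR) of 0.05 or less, 6604 of the 16208 genes (40.7%) were called, 3444 (21.2%) higher and 3160 (19.5%) lower in HGV, and 7979 genes had an unadjusted p under 0.05. Many of these changes were small. The median absolute log2 fold change was 0.70 among calls and 0.21 among the other genes, 1706 of the calls (25.8%) lay under 0.5, and the smallest called change was 0.29. Changes of 1 or more on the log2 scale were called for 1212 genes higher and 536 genes lower, and changes of 2 or more for 107 higher and 56 lower. All libraries of one group lay beyond all libraries of the other for 8330 genes (51.4%), among them 6286 of the calls (95.2%). Scaling by upper quartile factors in place of TMM factors moved the median log2 fold change of all genes from 0.01 to 0.10 and the share of calls that were higher from 52.2% to 63.5%, so the direction of small changes can depend on the scaling.

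**Figure D1:**
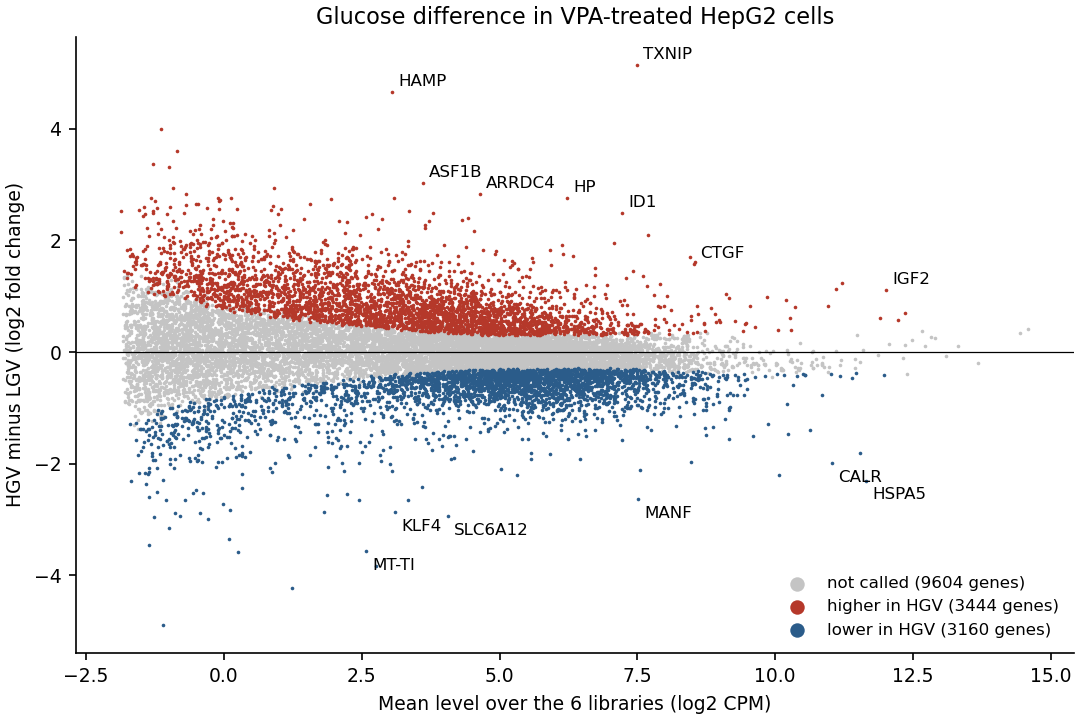
Each point is 1 of the 16208 genes, with its mean level over the 6 libraries (log2 CPM) on the horizontal axis and the log2 fold change of HGV against LGV on the vertical axis. Red points are the 3444 genes called higher and blue points the 3160 called lower at an FDR of 0.05 or less, and TXNIP (log2 fold change 5.15) and HAMP (4.66) stand above all others.

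TXNIP had the largest increase and the smallest p of all genes. It had 362, 344 and 344 CPM in HGV and 8.94, 10.7 and 9.69 CPM in LGV, a 35.4-fold difference with no overlap between the groups (log2 fold change 5.15, SE 0.14, FDR 2.83e-14). HAMP, which encodes the iron hormone hepcidin, had 17.9, 19.5 and 10.6 CPM in HGV and 1.08, 0.422 and 0.374 CPM in LGV (log2 fold change 4.66, SE 0.32, FDR 1.52e-08). The HGV library with the least HAMP was replicate 3, still above every LGV library. ASF1B, a histone H3-H4 chaperone of dividing cells, had 18.1, 22.5 and 24.6 CPM in HGV and 3.15, 2.34 and 2.46 CPM in LGV (log2 fold change 3.02, SE 0.18). With ARRDC4 and ID1, described further on, these genes were among the 12 largest called increases. That ranking took only genes whose groups do not overlap and whose mean CPM over the 6 libraries had a log2 of at least 1. The others in it were the acute phase genes HP (2.76, SE 0.27) and SERPINA3 (2.75, SE 0.34), the fatty acid omega-hydroxylase CYP4F2 (2.74, SE 0.25), the fast muscle troponin TNNI2 (2.52, SE 0.22), C19orf80, which encodes the lipase regulator ANGPTL8 (2.48, SE 0.19), and the noncoding RNAs RP11-1017G21.5 (2.65) and LINC00087 (2.56). HIST1H3B rose by 2.55 but lay outside these limits. HAMP passed the limit of level through its HGV libraries alone, which can also hold for ranked genes given without CPM. Reads of HP and CYP4F2 may be shared with the near-identical HPR and CYP4F3. The library kit kept strand but the use of strand in counting is not given in the sources used here, so counts of the following genes, whose exons overlap another gene on the opposite strand, may hold reads of that gene: ALDH1L2, ARG2, ATF5, ATP6V1D, BMP6, C19orf80, C1RL, CDK2, CDKN2A, COL18A1, CP, CPB2, CPT2, CTD-2561B21.5, DDIT3, DNAJB11, F12, FADS2, GINS2, GLS2, GLUD1, HDAC7, IGF2, KDELR3, KHK, LAMA5, MASP2, MCFD2, MVK, NFKBIB, NPC1, NPLOC4, NR1I3, PFKFB2, PFKM, PKLR, PSMB9, SLC6A9, SLC7A11, SREBF2, TGFB1 and WARS. Exons of ACSL4, C1RL, C4A, FADS2, HDAC10, IGF2R, MBTPS2, MT-CO3, NFKBIZ, OSGIN1, PFKFB4, PNPLA3, PSMB9, SERPINA3 and TF overlap another gene on the same strand.

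Losses reached a similar size. Among called genes with groups that do not overlap and a log2 of the mean CPM of 1 or more, CTD-2561B21.5 fell most. This noncoding RNA, on the strand opposite RPTOR, had 0.184, 0.333 and 0.176 CPM in HGV and 2.34, 6.33 and 4.78 CPM in LGV (log2 fold change -4.24, SE 0.39). Its LGV libraries alone carried it past that level, as was also the case for MT-TI, and this can hold for ranked genes given without CPM. Next came the noncoding RNA RP11-21L23.2 (-3.83, SE 0.26) and MT-TI, the mitochondrial tRNA for isoleucine, with 0.767, 1.55 and 0.441 CPM in HGV and 10.3, 11.4 and 11.4 CPM in LGV (-3.57, SE 0.28). Mature tRNAs have no poly(A) tail, and the source of these reads in poly(A)-selected RNA was not tested. SLC6A12, a transporter of betaine, had 3.92, 4.45 and 3.29 CPM in HGV and 21.1, 32.4 and 34.8 CPM in LGV (-2.93, SE 0.19, FDR 1.20e-08). KLF4, a transcription factor of epithelial differentiation, had 2.94, 1.52 and 1.88 CPM in HGV and 11.8, 16.4 and 17.1 CPM in LGV (-2.87, SE 0.23, FDR 9.58e-08). The group also held the cardiac troponin TNNT2 (-2.86, SE 0.25), KLHDC7B (-2.66, SE 0.19), the zinc finger gene ZNF114 (-2.65, SE 0.22), THSD4 (-2.57, SE 0.28), the small GTPase GEM (-2.55, SE 0.30) and RP11-242J7.1 (-2.42, SE 0.17). The ranking took only genes whose groups do not overlap, so by that rule all HGV libraries of these genes lay below all LGV libraries.

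**Figure D2:**
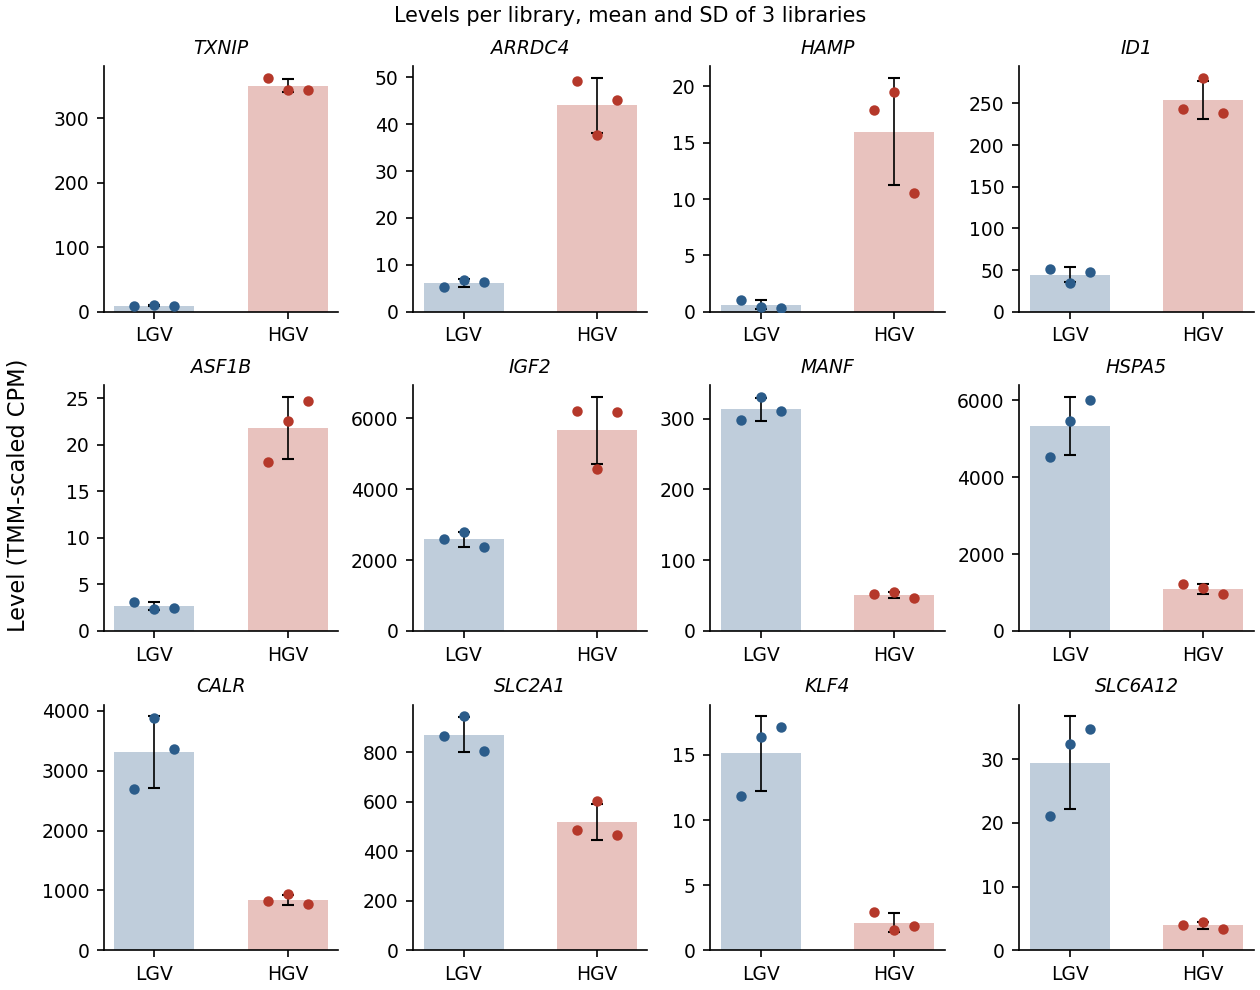
Levels in TMM-scaled CPM of 12 genes, with a point for each library, bars for the mean of 3 libraries and lines for the SD, and each axis starting at 0. In all 12 panels the 3 HGV libraries lie apart from the 3 LGV libraries, from 344 to 362 CPM against 8.94 to 10.7 CPM for TXNIP and from 949.9 to 1221 CPM against 4523 to 6003 CPM for HSPA5.

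Most genes of the sugar-sensing network were higher. Of 9 genes, 6 rose and 1 fell (median log2 fold change 0.92), where 40.7% of all genes tested were called and their median was 0.01. ARRDC4, the arrestin most like TXNIP, had 49.1, 37.6 and 45.2 CPM in HGV and 5.22, 6.69 and 6.46 CPM in LGV (log2 fold change 2.83, SE 0.15, FDR 9.93e-10). PKLR, the pyruvate kinase of liver, had 8.06, 9.3 and 9.5 CPM in HGV and 2.01, 1.92 and 2.24 CPM in LGV (2.1, SE 0.19, FDR 3.45e-07). KLF10, a repressor induced by ChREBP, had 99, 90.3 and 92.5 CPM in HGV and 20.8, 32.6 and 25.5 CPM in LGV (1.82, SE 0.15). MLXIPL, which encodes ChREBP itself, had the smallest called change (0.37, SE 0.13), while MLXIP (MondoA, -0.18) and MLX (-0.09) did not pass the test. ARRDC2 went the other way, with 14, 16.9 and 14.7 CPM in HGV and 22.7, 26.5 and 25.9 CPM in LGV (-0.74, SE 0.13). The number that rose was 5 without HGV replicate 1 or 3 or LGV replicate 2 or 3 and at an FDR of 0.01.

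The letters CACGTG, an E box that MLX dimers can bind in pairs, were searched in RefSeq promoters (GRCh38.p14, 250 bases before to 50 after the start, both strands). They stood in 12.2% of the 11393 promoters of tested genes, in 10.1% of those of genes called higher and in 15.3% of those called lower, and 3 of the 8 matched members of the network held them (ARRDC4, PKLR and MLX). The stretches around the E box of the 2 called members are shown because these 2 genes rose 7.09-fold and 4.29-fold, with the E box in capitals and 5′ to 3′ on the strand of the gene. ARRDC4 lies on the plus strand at chr15:97960473-97960518, bases -230 to -185 from its start, and PKLR on the minus strand at chr1:155301610-155301655, bases -217 to -172.
ARRDC4: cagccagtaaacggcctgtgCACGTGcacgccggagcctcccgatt
PKLR: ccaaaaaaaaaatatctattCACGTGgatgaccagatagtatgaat

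Genes of protein folding in the ER were lower as a group. Of 23 ER chaperones and folding enzymes tested, 21 fell and none rose, with a median log2 fold change of -1.47, and the 2 members not called were SIL1 (-0.30) and ERO1L (-0.19). MANF, a small ER protein released under stress (chromosome 3, 51422722 to 51426828, GRCh37), had 51.8, 55.4 and 46.1 CPM in HGV and 298, 330.4 and 311 CPM in LGV (log2 fold change -2.63, SE 0.13, FDR 3.26e-10). HSPA5, the main Hsp70 of the ER lumen (chromosome 9, 127997132 to 128003661), had 1221, 1106 and 949.9 CPM in HGV and 4523, 5456 and 6003 CPM in LGV (-2.3, SE 0.17, FDR 3.46e-08). For both genes the groups lay far apart, with every HGV library well under the lowest LGV library. CALR, a lectin chaperone that stores calcium (chromosome 19, 13049392 to 13055303), had 814, 938 and 776 CPM in HGV and 2697, 3887 and 3354 CPM in LGV (-1.99, SE 0.17, FDR 1.69e-07). HYOU1, an exchange factor of HSPA5, fell by 2.20 on the log2 scale (SE 0.16), and the J-domain partners of HSPA5, DNAJC3 (-2.12, SE 0.14), DNAJB11 (-1.98, SE 0.14) and DNAJB9 (-1.83, SE 0.12) fell with SDF2L1 (-1.8, SE 0.12).

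The list of sensors and regulators of these genes had a median nearer 0. Of 16 UPR sensors and regulators 8 fell and 2 rose (median -0.37). DDIT3, the stress factor CHOP, had 18, 16.4 and 20.6 CPM in HGV and 78.5, 28.4 and 40.4 CPM in LGV (-1.44, SE 0.24, FDR 0.000182), with a wide spread in LGV where replicate 1 stood highest. The pseudokinase TRIB3 (-1.36, SE 0.14), the phosphatase subunit PPP1R15A (-1.09, SE 0.12) and the kinase EIF2AK3, or PERK (-1.07, SE 0.13) fell, while CREB3L3, a membrane-bound factor of liver (0.43, SE 0.12), and the site-2 protease MBTPS2 (0.52, SE 0.16) rose. XBP1 (0.16) was not called. In ER-associated degradation 11 of 18 genes fell and 1 rose (median -0.48). HERPUD1, with 299, 339 and 244 CPM in HGV and 849, 828 and 872 CPM in LGV (-1.55, SE 0.14), and SEL1L (-1.49, SE 0.14), both parts of the HRD1 ligase complex, led it with VIMP (-1.46, SE 0.13) and the conjugating enzyme UBE2J1 (-1.25, SE 0.12), and NPLOC4 was the 1 gene that rose (0.30, SE 0.12). Among 30 genes of ER translocation and COPII transport 18 fell and 1 rose (median -0.41). The coat subunit SEC24D (-1.04, SE 0.12), the cargo receptor subunit MCFD2 (-0.99, SE 0.13), the translocon protein SSR1 (-0.89, SE 0.12) and the signal peptidase subunit SEC11C (-0.82, SE 0.12) fell most, and KDELR3 rose (0.39, SE 0.14). Other settings lost the calls of MBTPS2 (without LGV replicate 2 or 3, FDR up to 0.0884), NPLOC4 (without HGV replicate 1 or 2 or LGV replicate 1, 2 or 3 or with RLE factors, FDR up to 0.141) and KDELR3 (without HGV replicate 2 or LGV replicate 2 or 3, FDR up to 0.159).

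The ER stress element, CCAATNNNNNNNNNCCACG on either strand, was rare in the promoters of tested genes. It stood in 16 of 11393 (0.140%), in 12 of the 2376 promoters of genes called lower (0.505%), in 1 of 2512 of genes called higher (SYNPO) and in 3 of 6505 of genes not called (XBP1, FICD and ZNF17). Of the 22 matched members of the ER chaperone list 7 held it (31.8%), namely HSPA5, HSP90B1, CALR, CANX, PDIA6, CRELD2 and ERO1LB, all called lower. The element of CRELD2 was also that of its divergent neighbour ALG12, and a single element likewise served SERP1 and EIF2A, so the 16 promoters held fewer separate elements than genes. None of 15 matched genes of ER-associated degradation and none of 26 of translocation and transport had these letters in the window, which says nothing of the factor. The elements of HSPA5 and CALR are shown because these 2 named chaperones lost most of their RNA. HSPA5 lies on the minus strand at chr9:125241371-125241429 (bases -86 to -28 from its start) and CALR on the plus strand at chr19:12938364-12938422 (bases -245 to -187), both in GRCh38.p14 from RefSeq, with the fixed letters in capitals, which read CGTGG and ATTGG where the element is on the other strand.
HSPA5: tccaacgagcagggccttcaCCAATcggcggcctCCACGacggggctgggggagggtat
CALR: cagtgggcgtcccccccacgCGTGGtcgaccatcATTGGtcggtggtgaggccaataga

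Targets of ATF4, the factor of the amino acid and stress response, split in both directions. Of 25 genes 7 rose and 9 fell (median 0.09). CHAC1, which degrades glutathione, had 6.9, 9.37 and 6.23 CPM in HGV and 1.83, 1.59 and 1.65 CPM in LGV (log2 fold change 2.13, SE 0.21, FDR 1.13e-06). Asparagine synthetase ASNS had 745, 892 and 638 CPM in HGV and 345, 406 and 398 CPM in LGV (0.97, SE 0.14), and cystathionine gamma-lyase CTH (1.04, SE 0.16), the mTOR inhibitor DDIT4 (0.98, SE 0.12), the cystine transporter SLC7A11 (0.87, SE 0.21), ALDH1L2 (0.67, SE 0.15) and the serine pathway enzyme PSAT1 (0.56, SE 0.15) also rose. ATF5 fell, with 5.95, 7.35 and 6.21 CPM in HGV and 16.6, 21.8 and 18.7 CPM in LGV (-1.56, SE 0.16), as did TRIB3 and SLC3A2, the heavy chain of amino acid exchangers (-1.2, SE 0.14). Without HGV replicate 3 the number that fell was 5 instead of 9, and DESeq2 gave SLC7A11 an FDR of 0.0603. Of 20 cytosolic aminoacyl-tRNA synthetases (30.0% called) 5 fell, WARS most (-1.31, SE 0.13), and FARSB rose (0.41, SE 0.13). This last call was lost without LGV replicate 2 or 3, FDR up to 0.11. Of 19 amino acid transporters (47.4% called beside 40.7% of all genes) 6 fell, among them the glycine carrier SLC6A9 (-1.01, SE 0.16) and SLC38A1 (-0.91, SE 0.13), and 3 rose, among them SLC38A4 (0.92, SE 0.17) and SLC7A7 (0.70, SE 0.18).

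The letters TGATGCAA, the core of a composite C/EBP-ATF element, stood in 0.772% of the promoters of tested genes and in 3 of the 20 matched ATF4 targets, CHAC1, CEBPG and FGF21. The first of these was called higher, and CEBPG (-0.58) and FGF21 (-0.80) lower. CHAC1 is shown because it rose most in the list; it lies on the plus strand at chr15:40953242-40953289 (GRCh38.p14, bases -229 to -182 from the start), and its capitals read TTGCATCA because the element is on the other strand.
CHAC1: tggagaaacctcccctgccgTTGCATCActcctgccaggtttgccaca

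Cholesterol synthesis rose at most of its steps. Of 22 enzymes 14 rose and none fell (median 0.49), and between 12 and 14 rose when any 1 library was left out. Isopentenyl diphosphate isomerase IDI1 had 56.6, 53.6 and 63.7 CPM in HGV and 25.7, 23.1 and 21.9 CPM in LGV (log2 fold change 1.28, SE 0.12, FDR 9.01e-07). Mevalonate kinase MVK (1.03, SE 0.12), the decarboxylase MVD (0.96, SE 0.13) and the methyl sterol oxidase MSMO1 (0.95, SE 0.12) rose by similar amounts. CYP51A1 (-0.39) and HSD17B7 (-0.20) were below 0 without passing the test. Of 14 genes of SREBP control and LDL uptake 4 rose and 3 fell. The shares called higher and lower were 28.6% and 21.4%, beside 21.2% and 19.5% of all genes. The intestinal and hepatic sterol transporter NPC1L1 (1.02, SE 0.14) and SREBF2, with 323, 303 and 297 CPM in HGV and 157, 178 and 185 CPM in LGV (0.81, SE 0.12), rose. INSIG2, which retains SREBP in the ER (-0.74, SE 0.13), NPC1, which exports sterol from lysosomes (-0.50, SE 0.12), and the SREBP escort SCAP (-0.34, SE 0.12) fell, and the call of SCAP was lost without HGV replicate 1 or 3 or LGV replicate 2 or 3 or with upper quartile factors, FDR up to 0.127. SREBF1 (0.22) was not called. A 9-letter sterol element, TCACCCCAC, was found in 0.544% of promoters of tested genes and in none of 17 matched cholesterol genes, which says only that these letters are not in this window.

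Fatty acid genes rose in part, in synthesis and in oxidation. In synthesis and desaturation 7 of 16 rose, 1 fell and 8 were not called (median 0.32), where 40.7% of all genes were called. The lipid droplet protein PNPLA3 led the increases, with 7.33, 8.23 and 6.91 CPM in HGV and 3.63, 3.34 and 3.07 CPM in LGV (1.14, SE 0.18). The acyl-CoA synthetase ACSL4 (0.76, SE 0.15), the desaturase FADS2 (0.66, SE 0.13) and acetyl-CoA synthetase ACSS2 (0.57, SE 0.12) followed. ACSL1 fell (-0.44, SE 0.12), and FASN (0.34), ACLY (0.31) and ACACA (0.26) were not called. In mitochondrial oxidation and ketogenesis 7 of 18 rose and 1 fell (44.4% called beside 40.7% of all genes, median 0.22). The carnitine carrier SLC25A20 had 28.7, 34.8 and 28.8 CPM in HGV and 16.4, 14.5 and 14.9 CPM in LGV (0.99, SE 0.13), and CPT2 (0.91, SE 0.14) and ACADS (0.91, SE 0.16) rose while the receptor gene PPARA fell (-0.45, SE 0.12) and CPT1A (-0.26) was not called. Among 15 apolipoproteins and partners 5 rose and 1 fell. The share called was 40.0%, beside 40.7% of all genes. APOC3, an inhibitor of lipoprotein lipase, had 56, 74.6 and 88.8 CPM in HGV and 22.1, 27.2 and 18 CPM in LGV (1.69, SE 0.17, FDR 1.09e-06), APOA1 (0.94, SE 0.16), APOC2 (1.02, SE 0.27) and APOA5 (0.78, SE 0.17) rose, APOA2 fell (-0.61, SE 0.14), and APOB (0.22) and APOE (-0.31) were not called.

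Genes that handle glucose itself changed in both directions. SLC2A1, the widespread transporter GLUT1 (chromosome 1, 43391024 to 43424564), had 485, 602 and 467 CPM in HGV and 866, 946 and 803 CPM in LGV (log2 fold change -0.77, SE 0.14, FDR 0.000359), and SLC2A2, the liver transporter GLUT2, had 23.9, 20.9 and 27.7 CPM in HGV and 16.1, 12.6 and 12 CPM in LGV (0.81, SE 0.15, FDR 0.00041). The former was lower and the latter higher in every HGV library. Of the 12 transporters 6 rose and 2 fell (median 0.34), but 3 rose without HGV replicate 3 or LGV replicate 2 and 2 without LGV replicate 3, and reads of SLC2A14 may be shared with SLC2A3. Of 22 glycolytic genes 5 rose and 2 fell (31.8% called beside 40.7% of all genes, median -0.01, or 0.08 with upper quartile factors or library size alone). PKLR, the brain-type aldolase ALDOC (1.37, SE 0.17), PFKFB4 (1.08, SE 0.16) and PFKM (0.78, SE 0.19) rose, HK1 (-0.48, SE 0.13) and PFKFB2 (-0.60, SE 0.14) fell, and GAPDH (-0.24), PKM (-0.10), LDHA (0.26) and HK2 (-0.10) were not called.

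In gluconeogenesis and glycogen metabolism 8 of 18 genes rose and 4 fell (median 0.54). PCK2, the mitochondrial phosphoenolpyruvate carboxykinase, had 510.3, 600.0 and 503 CPM in HGV and 213, 127 and 148 CPM in LGV (1.71, SE 0.17, FDR 9.93e-07). The cytosolic form PCK1 had 74.6, 60.7 and 80.6 CPM in HGV and 32.3, 34.1 and 29.4 CPM in LGV (1.15, SE 0.13), and glucose-6-phosphatase G6PC, the last step of glucose output, had 83.2, 99.5 and 93 CPM in HGV and 41.5, 55.6 and 31.5 CPM in LGV (1.08, SE 0.16, FDR 5.90e-05). All 3 were higher in every HGV library than in any LGV library. The glycogen targeting subunit PPP1R3C rose too (1.28, SE 0.18), and UGP2, which makes UDP-glucose, fell (-0.72, SE 0.14). The number that fell was 2 without HGV replicate 1 or 3 and 1 without LGV replicate 2 or 3. In the pentose phosphate, hexosamine and polyol genes 3 of 13 rose and 3 fell (46.2% called beside 40.7% of all genes). The fructose kinase KHK (1.16, SE 0.13) and GFPT2 (1.05, SE 0.22) rose, and the aldose reductases AKR1B10 (-1.56, SE 0.17) and AKR1B1 (-0.74, SE 0.14) and GFPT1 (-0.79, SE 0.13) fell. Of 7 genes of osmolyte transport 4 fell, SLC6A12 and the glycerol channel AQP3 (-1.0, SE 0.17) most, and SGK1 rose (0.56, SE 0.16).

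Calls among plasma protein genes were mostly toward higher levels in HGV. Of 26 complement activation genes 19 were tested, of which 14 rose and 2 fell (median 0.70), and 12 to 14 rose when 1 library was left out. C3, the central component (chromosome 19, 6677715 to 6730573), had 7101, 6625 and 5835 CPM in HGV and 3462, 4793 and 3621 CPM in LGV (log2 fold change 0.70, SE 0.17, FDR 0.00317). The terminal components C6 (1.57, SE 0.28) and C8B, with 24.1, 25.5 and 18 CPM in HGV and 6.6, 10.1 and 6.57 CPM in LGV (1.52, SE 0.18), the protease-like C1RL (1.25, SE 0.17) and the lectin MBL2 (1.22, SE 0.27) rose most, and the lectin COLEC11 fell (-0.76, SE 0.17). The 2 lectin pathway proteases went in opposite directions, MASP2 with 7.11, 7.54 and 7.85 CPM in HGV and 6.39, 4.42 and 4.8 CPM in LGV (0.51, SE 0.18, FDR 0.0323) and MASP1 with 56.8, 53.8 and 64.6 CPM in HGV and 70.7, 93.3 and 68.6 CPM in LGV (-0.43, SE 0.14, FDR 0.0172). Both calls were lost under other settings, those of MASP2 (without HGV replicate 1 or 3 or LGV replicate 2 or 3 or in 1 fit of 12 libraries, FDR up to 0.143) and MASP1 (without HGV replicate 1 or LGV replicate 2 or with library size alone, FDR up to 0.157). C4A and C4B, both called higher, are near-identical copies whose reads cannot be split with certainty. Of 11 complement regulators 3 rose and 2 fell (45.5% called beside 40.7% of all genes). SERPING1, the C1 inhibitor (chromosome 11, 57364860 to 57386644), had 73.7, 75.2 and 44.1 CPM in HGV and 24.6, 25.6 and 23.8 CPM in LGV (1.37, SE 0.16, FDR 7.95e-06), and CFI, which inactivates C3b, rose (0.93, SE 0.12), while C4BPB (-1.03, SE 0.12) and CD55 (-0.95, SE 0.12) fell.

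Of 18 coagulation genes 8 rose and none fell (44.4% called beside 40.7% of all genes, median 0.38). The fibrinogen chains FGA, with 3797, 3618 and 2649.8 CPM in HGV and 1281, 1602 and 1345 CPM in LGV (1.23, SE 0.17), and FGB (1.04, SE 0.13) rose with KNG1, the kininogen, with 9.23, 9.42 and 12.6 CPM in HGV and 3.3, 3.73 and 3.55 CPM in LGV (1.54, SE 0.18), and F12 (0.56, SE 0.21). Prothrombin F2 (0.11) and F5 (-0.07) were not called. The count of 8 depended on single libraries, being 5 without HGV replicate 3 or LGV replicate 2 and 3 without LGV replicate 3. The call of F12 was lost without HGV replicate 3 or LGV replicate 1, 2 or 3, FDR up to 0.263. Of 16 anticoagulants and fibrinolysis genes 7 rose, 1 fell and 8 were not called, where 40.7% of all genes were called in either direction. Plasminogen PLG, with 50.2, 47.2 and 50.5 CPM in HGV and 23.2, 21.9 and 16.1 CPM in LGV (1.25, SE 0.14), and CPB2 (0.69, SE 0.13) rose, and antithrombin SERPINC1 fell (-0.80, SE 0.13).

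Of 21 acute phase and carrier genes 10 rose and 3 fell (median 0.49). Haptoglobin HP had 144, 182 and 64.8 CPM in HGV and 13.7, 24.9 and 18.5 CPM in LGV, and SERPINA3 had 23.6, 14.2 and 6.44 CPM in HGV and 2.55, 1.43 and 2.46 CPM in LGV. In both genes HGV replicate 3 was the lowest HGV library, well under replicates 1 and 2, and still above all LGV libraries. Ceruloplasmin CP rose (1.2, SE 0.14), and the orosomucoids ORM1 (-0.98, SE 0.14) and ORM2 (-0.80, SE 0.15), near-identical copies, fell with AMBP (-0.43, SE 0.16). ALB (0.34), AFP (0.13) and SERPINA1 (0.37) were not called. Calls lost under other settings, mostly when 1 library was left out, were those of AMBP (without HGV replicate 1 or 3 or LGV replicate 2 or 3 or with upper quartile factors, FDR up to 0.172), TF (without HGV replicate 3 or LGV replicate 3, FDR up to 0.0672) and TTR (without HGV replicate 3 or LGV replicate 3, FDR up to 0.0695).

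Genes of BMP signalling, which controls hepcidin in liver, were mostly higher. Of 14 genes 9 rose and 1 fell (median 0.59). ID1, an inhibitor of basic helix-loop-helix factors and a direct BMP target (chromosome 20, 30193086 to 30194318), had 243, 281 and 238 CPM in HGV and 51.9, 34.2 and 48.3 CPM in LGV (log2 fold change 2.49, SE 0.15, FDR 7.00e-09). ID3 had 51.4, 62.3 and 50.3 CPM in HGV and 21.1, 14.3 and 20.7 CPM in LGV (1.53, SE 0.15, FDR 9.93e-07). In neither gene did the groups overlap. The ligand BMP6 (0.77, SE 0.23), the protease TMPRSS6 (1.0, SE 0.19), the transferrin receptor TFR2 (0.62, SE 0.14) and the inhibitory SMAD6 (0.56, SE 0.19), named here after their values were seen, rose less, BMP4 fell (-1.19, SE 0.13), and TFRC (-0.15) was not called.

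In the insulin-like growth factor axis 5 of 14 genes rose and 6 fell. IGF2, the fetal growth factor, had 6222, 4581 and 6187 CPM in HGV and 2605, 2798 and 2379 CPM in LGV (1.11, SE 0.17, FDR 6.15e-05), and the neighbouring noncoding RNA H19 rose as well (1.07, SE 0.25). IRS2, the docking protein of the insulin receptor, had 1.47, 1.21 and 1.21 CPM in HGV and 3.72, 5.65 and 4.46 CPM in LGV (-1.85, SE 0.23), and the clearance receptor IGF2R fell (-0.66, SE 0.15). Of 13 Kruppel-like factors 8 fell and 1 rose (median -0.35). KLF6 (-0.86, SE 0.13) and KLF5 (-0.86, SE 0.19) fell beside KLF4, and KLF10 was the 1 that rose. In integrins and matrix 7 of 24 genes fell and 3 rose (41.7% called beside 40.7% of all genes), 4 falling without LGV replicate 2 or 3. CTGF, a matricellular protein, had 581, 531 and 539 CPM in HGV and 149, 206 and 194 CPM in LGV (1.57, SE 0.14, FDR 3.52e-07), and COL18A1 (0.50, SE 0.12) and LAMA5 (0.47, SE 0.13) rose while ITGA2 (-1.03, SE 0.17), TGFB1 (-0.74, SE 0.13) and LAMA3 (-0.78, SE 0.21) fell. Single libraries decided 2 of these calls, LAMA5 (without HGV replicate 1, FDR 0.0587) and LAMA3 (without LGV replicate 2, FDR 0.0699).

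Cell cycle genes were higher in HGV. Of 30 DNA replication genes 22 rose and 1 fell (median 0.78), and 17 to 22 rose when any 1 library was left out. The GINS subunit GINS2 had 18.9, 29.2 and 27.3 CPM in HGV and 6.39, 6.72 and 6.73 CPM in LGV (log2 fold change 1.91, SE 0.17, FDR 2.58e-07), thymidine kinase TK1 had 38.5, 53.5 and 47.9 CPM in HGV and 12.9, 12 and 16.1 CPM in LGV (1.75, SE 0.15, FDR 2.17e-07), and the ribonucleotide reductase subunit RRM2 had 47.4, 53.9 and 53.6 CPM in HGV and 15.9, 14.1 and 19 CPM in LGV (1.64, SE 0.13, FDR 1.48e-07). These differences were 3.12-fold to 3.76-fold, with no overlap. POLA2 rose (1.87, SE 0.28), with LGV replicate 1 above the other LGV libraries, and the clamp loader subunit RFC1 fell (-0.38, SE 0.14). The call of RFC1 was lost without HGV replicate 1 or 2 or LGV replicate 2 or 3 or with library size alone or in 1 fit of 12 libraries or with upper quartile factors, FDR up to 0.184. CDC6 (-0.17) and TYMS (-0.02) were not called. Of 30 mitotic genes 21 rose and none fell (median 0.65), and 16 to 24 rose when 1 library was left out. CDK1, the mitotic kinase, had 27.3, 33.2 and 36 CPM in HGV and 10.6, 11.6 and 13.6 CPM in LGV (1.41, SE 0.14, FDR 1.34e-06), and AURKB (1.28, SE 0.15), the checkpoint protein MAD2L1 (1.17, SE 0.15) and the motor KIF11 (0.95, SE 0.20) rose, while AURKA (-0.27), CCNB1 (-0.10) and PLK1 (0.10) were not called.

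Of 17 CDK inhibitors and G1 cyclins 3 fell and 1 rose (23.5% called beside 40.7% of all genes). The inhibitors CDKN1A, with 177, 194 and 142 CPM in HGV and 180.3, 332 and 291 CPM in LGV (-0.67, SE 0.18, FDR 0.00655), CDKN2B (-0.77, SE 0.18) and CDKN2A (-0.59, SE 0.20) fell, and CDK2 rose (0.34, SE 0.13). For CDKN1A the groups overlapped, since LGV replicate 1 lay within the HGV range. CCND1 (0.15) and CCNE1 (0.04) were not called. Among 28 clustered histone genes, whose RNAs mostly lack poly(A) tails, 6 rose and 1 fell (25.0% called), with 2 rising without HGV replicate 2 and 3 without LGV replicate 3. HIST1H3H had 4.75, 6.11 and 4.62 CPM in HGV and 2.94, 2.24 and 2.51 CPM in LGV (0.99, SE 0.21), a gene of a family whose near-identical copies can share reads. Of the 10 zinc-dependent histone deacetylases 30.0% were called, beside 40.7% of all genes, and VPA inhibits the class I and class IIa members. HDAC6, of class IIb, rose (0.51, SE 0.11) and HDAC10, of class IIb (-0.84, SE 0.22), and HDAC7, of class IIa (-0.43, SE 0.14), fell. Calls lost under other settings were those of CDKN2A (without HGV replicate 1 or 3 or LGV replicate 2 or 3 or with library size alone or with upper quartile factors, FDR up to 0.141), CDK2 (without HGV replicate 1 or 2 or LGV replicate 1, 2 or 3, FDR up to 0.129), HDAC10 (without LGV replicate 3, FDR 0.0579) and HDAC7 (without HGV replicate 3 or LGV replicate 3 or with library size alone or with upper quartile factors, FDR up to 0.148).

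**Figure D3:**
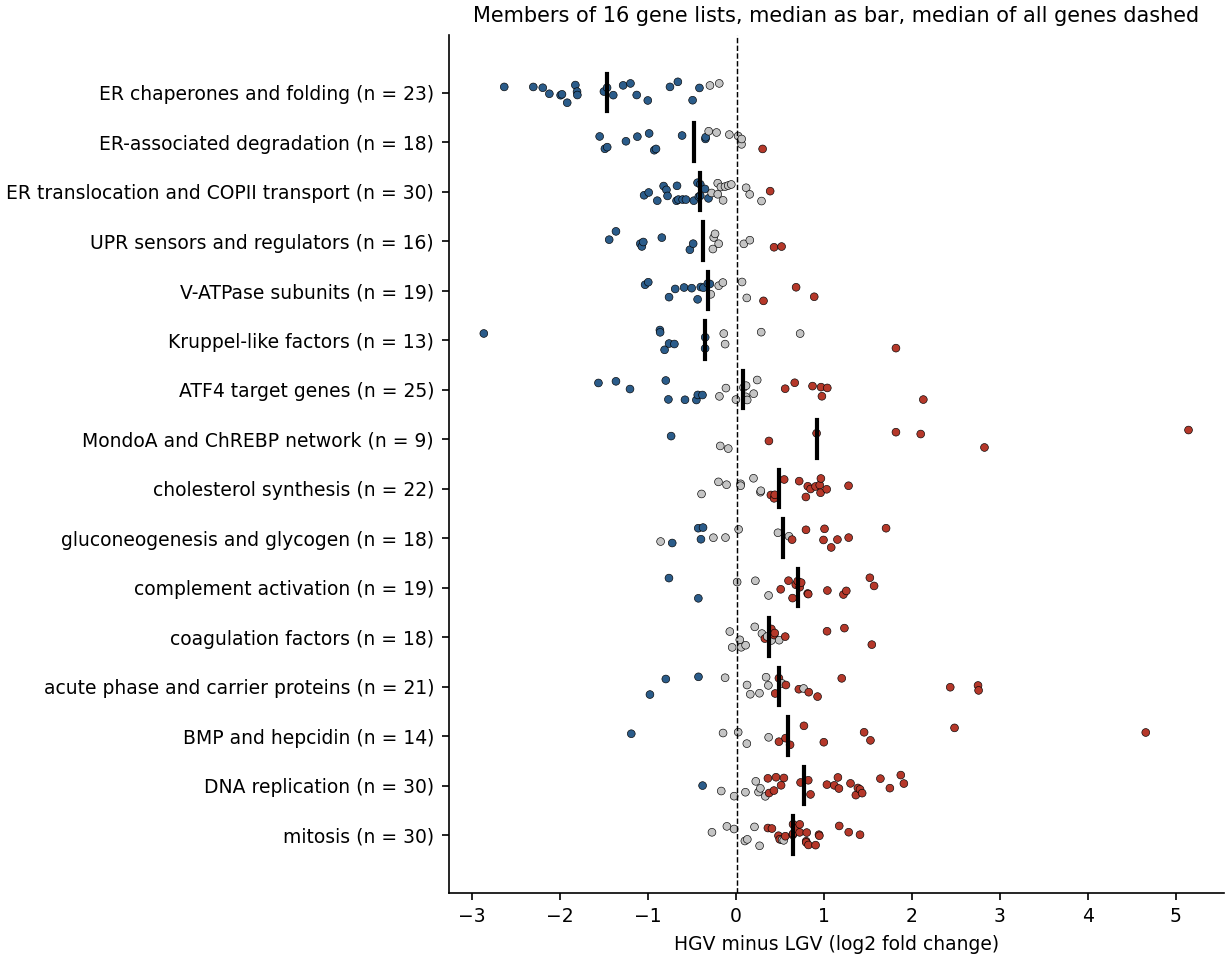
Log2 fold change of HGV against LGV for every tested member of 16 gene lists, with red points for genes called higher, blue for lower, grey for those not called, a black bar at each list's median and a dashed line at the median of all genes. The ER chaperones lie farthest to the left (median -1.47, 21 of 23 lower), and DNA replication (22 of 30 higher), mitosis (21 of 30) and complement activation (14 of 19) lie to the right.

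The remaining lists held changes in both directions. Of 20 hepatocyte transcription factors 40.0% were called, beside 40.7% of all genes. In that list 5 fell, with the bile acid receptor NR1H4 (-0.94, SE 0.13) and NR5A2 (-0.70, SE 0.18) among them, 3 rose, including CEBPA (0.68, SE 0.24) and NR1I3 (0.73, SE 0.24), and HNF4A (0.23) was not called. Scaled by library size alone, 3 fell, and 1 or 0 rose when HGV replicate 1 or 3 or LGV replicate 2 or 3 was left out. The call of CEBPA was lost without HGV replicate 3 or LGV replicate 2 or 3, FDR up to 0.188, and that of NR1I3 without HGV replicate 1 or LGV replicate 2 or 3, FDR up to 0.0996. Of 22 drug metabolism genes 6 rose and 5 fell, with CYP1A1, an enzyme of the aryl hydrocarbon response, at 13.3, 15.4 and 16.6 CPM in HGV and 48.3, 40.5 and 31.1 CPM in LGV (-1.42, SE 0.15) and the estrogen sulfotransferase SULT1E1 (1.49, SE 0.30) and GSTA4 (1.18, SE 0.16) higher. The other 11 drug metabolism genes were not called, where 40.7% of all genes were called in either direction. Of 12 urea cycle and ammonia genes 4 rose, 2 fell and 6 were not called, beside the same 40.7%. Mitochondrial arginase ARG2 had 62.6, 61.3 and 53.5 CPM in HGV and 134, 168 and 158 CPM in LGV (-1.39, SE 0.13), and the liver glutaminase GLS2 (0.59, SE 0.16) and glutamate dehydrogenase GLUD1 (0.57, SE 0.13) rose, the count of 4 being 2 without LGV replicate 3.

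Among stress lists, 6 of 17 NRF2 antioxidant genes fell (7 of 17 called in all, 41.2% beside 40.7% of all genes), with OSGIN1 (-0.83, SE 0.14) and thioredoxin reductase TXNRD1 (-0.77, SE 0.14) the lowest, and SLC7A11 rose. Of 17 cytosolic heat shock genes 6 fell and none rose (35.3% called), HSPH1, with 123, 107 and 118 CPM in HGV and 238, 333 and 298 CPM in LGV (-1.34, SE 0.14), and HSPB8 (-1.34, SE 0.24) most, but 3 fell without HGV replicate 1, LGV replicate 2 or LGV replicate 3. Of 19 hypoxia genes 5 rose and 4 fell (47.4% called). ANGPTL4 (1.03, SE 0.19) and CA12 (0.91, SE 0.25) rose most, the number that rose was 3 without HGV replicate 3 and 1 without LGV replicate 3, and the number that fell was 0 to 2 without each library other than LGV replicate 1. Of 8 metallothionein-related genes MT1X (0.78, SE 0.22) and MT1A (0.75, SE 0.25) rose and the zinc exporter SLC30A1 (-0.86, SE 0.12) and its regulator MTF1 (-0.62, SE 0.13) fell. The other 4 were not called, where 40.7% of all genes were called. Of 15 NF-kB feedback and chemokine genes (33.3% called) 3 inhibitor or precursor genes fell, NFKBIA (-0.84, SE 0.15), NFKB1 (-0.70, SE 0.13) and NFKBIB (-0.55, SE 0.13), and NFKBIZ (0.66, SE 0.15) and IL32 (0.55, SE 0.12) rose. Of 15 voltage-gated channel genes 4 rose and 2 fell (40.0% called), the muscle sodium channel SCN4A having 8.62, 7.8 and 7.21 CPM in HGV and 2.76, 1.01 and 0.854 CPM in LGV (2.34, SE 0.31) and the neuronal SCN2A having 1.9, 1.12 and 2.82 CPM in HGV and 5.22, 5.52 and 5.6 CPM in LGV (-1.51, SE 0.26). Leaving out 1 library lost the calls of CA12 (without LGV replicate 3, FDR 0.0508), MT1X (without HGV replicate 2, FDR 0.0522) and MT1A (without HGV replicate 2 or LGV replicate 2 or 3, FDR up to 0.119).

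Subunits of large complexes differed in how many were called. Beside 40.7% of all genes, 8.54% of the cytosolic ribosomal protein genes and 18.9% of the proteasome subunits were called. The share was 73.7% for the vacuolar ATPase and 23.1% for mitochondrially encoded mRNAs. Of 82 cytosolic ribosomal protein genes 7 fell and none rose (median -0.23), with 79 of the 82 below 0, and the count was set by single libraries, being 47 without HGV replicate 2 and 2 without HGV replicate 1, LGV replicate 2 or LGV replicate 3. RPS27 had 15.7, 18.2 and 15.1 CPM in HGV and 22.9, 31 and 22.4 CPM in LGV (-0.65, SE 0.15). Of 37 proteasome subunits 4 rose and 3 fell, the immunoproteasome subunit PSMB9 rising most (0.89, SE 0.18), and the number that fell was 1 without HGV replicate 1 and 6 without HGV replicate 2 or LGV replicate 1. Of 19 subunits of the vacuolar ATPase, the proton pump of lysosomes, 11 fell and 3 rose (median -0.32). ATP6V1D had 20.6, 17.5 and 21.7 CPM in HGV and 40.0, 36.9 and 43.7 CPM in LGV (-1.03, SE 0.13) and ATP6V0B 118, 153 and 118 CPM in HGV and 221, 284 and 262 CPM in LGV (-1.0, SE 0.14), and the number that fell was 4 to 6 when HGV replicate 1 or 3 or LGV replicate 2 or 3 was left out, with 1 rising without HGV replicate 2 or LGV replicate 2 or 3. Of 13 mitochondrially encoded mRNAs MT-CO3 rose, with 4408, 5077 and 4335 CPM in HGV and 3069, 3241 and 2687 CPM in LGV (0.60, SE 0.15), and MT-ND1 (-0.38, SE 0.14) and MT-ND2 (-0.40, SE 0.14) fell. All 3 calls were lost under other settings, those of MT-CO3 (without LGV replicate 3, FDR 0.0579), MT-ND1 (without HGV replicate 1, 2 or 3 or LGV replicate 2 or 3 or with upper quartile factors, FDR up to 0.132) and MT-ND2 (without HGV replicate 1 or 3 or LGV replicate 2 or 3 or with upper quartile factors, FDR up to 0.141).

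The glucose difference with VPA was set beside that without it, from HG and LG libraries that entered none of the main HGV-LGV tests above. They had a part in the TMM factors behind the CPM, set over all 12 libraries, and in the alternative of 1 fit of 12 libraries. Between HG and LG 3813 of 15452 genes (24.7%) were called, 1933 without LG replicate 1, 2076 without HG replicate 3 and 5338 without LG replicate 3. Of the 15271 genes tested both ways, 6243 were called with VPA and 3789 without, and 2873 in both, 2863 of them in the same direction (1351 higher and 1512 lower) and 10 in opposite directions. Genes called in both in the same direction made up 45.9% of the calls with VPA and 75.6% of those without. Of the 3370 genes called with VPA alone, 3046 had the same sign without it, so a call on one side alone is not a difference between the 2 comparisons. The SD of log2 fold changes was 0.63 with VPA and 0.55 without, and their median SE was 0.15 and 0.17. Across these genes, which are not independent, the 2 sets of log2 fold changes had a Pearson correlation of 0.779 and a Spearman correlation of 0.766. Shares of calls moved with the libraries, since 26.0% of the calls with VPA were also called without it after LG replicate 1 was left out and 60.2% after LG replicate 3 was left out.

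**Figure D4:**
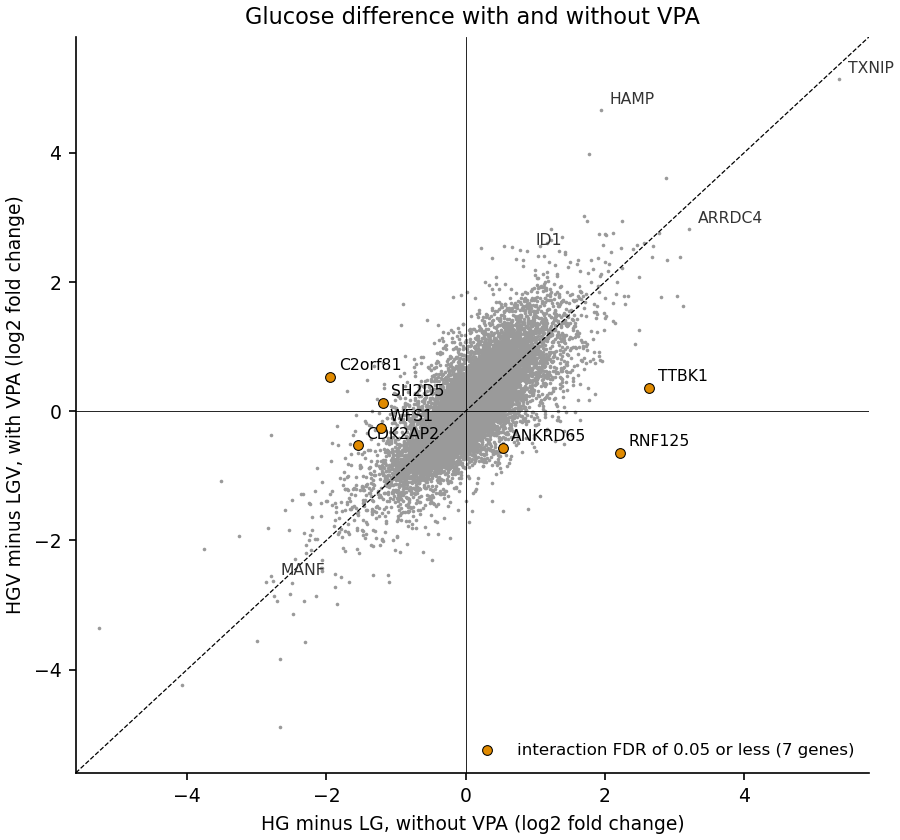
Log2 fold change of HG against LG on the horizontal axis and of HGV against LGV on the vertical axis, with a grey point for each of the 15271 genes tested both ways, orange points for the 7 genes past the interaction threshold and the line of equal change dashed. TXNIP (5.37 without and 5.15 with VPA) and MANF (-2.77 and -2.63) lie near the line, and HAMP (1.95 and 4.66) lies above it.

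List medians with and without VPA were near each other for some lists and apart for others. The ER chaperones had -1.47 with and -1.56 without VPA, complement activation 0.70 and 0.84, cholesterol synthesis 0.49 and 0.59, DNA replication 0.78 and 0.46, and mitosis 0.65 and 0.54. The 12 glucose transporters had a median of 0.34 with VPA (6 higher and 2 lower). Without it 11 of them were tested, with a median of -0.20 (1 higher and 2 lower). The 8 metallothionein-related genes had 0.13 and -0.45. The IGF axis had -0.36 and -0.01. The clustered histone genes had 0.53 (28 tested) and 0.20 (27 tested), and the hepatocyte markers 0.36 and 0.05. The differences between these medians were not tested. The log2 fold change of HAMP was 4.66 with and 1.95 without VPA (interaction FDR 0.132), that of ID1 2.49 and 0.88 (0.0983), and that of ID3 1.53 and 0.19 (0.0754). For SDF2L1 the values were -1.8 with and -2.85 without VPA (interaction FDR 0.0627). None of these 4 passed the test of the difference between the 2 comparisons.

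That test, the glucose by VPA interaction in a fit of all 12 libraries, passed for 7 of 16389 genes (0.0427%), with 1852 genes at an unadjusted p under 0.05. RNF125 passed under every alternative run, with an FDR of at most 0.0145. The other 6 missed the threshold with library size alone. They also missed it when any library but LG replicate 2, LG replicate 3 or LGV replicate 1 was left out. Their highest FDRs were 0.159 to 0.186. RNF125, a ubiquitin ligase, had the smallest p, and its change turned from an increase without VPA (2.22, FDR 1.84e-05) to a decrease with it (-0.64, FDR 0.0217), a call lost without HGV replicate 3 or LGV replicate 2 or 3 or with library size alone or with upper quartile factors, FDR up to 0.0974. WFS1, an ER membrane protein of calcium and stress handling, fell without VPA (-1.22, FDR 5.01e-06) and had 104, 102 and 99.5 CPM in HGV and 114, 116 and 129.6 CPM in LGV with it (-0.25, FDR 0.0867), which did not pass. CDK2AP2 fell in both comparisons (-1.55 without and -0.53 with VPA). C2orf81 (-1.94 without, 0.54 with), SH2D5 (-1.19 and 0.13) and the kinase TTBK1 (2.64 and 0.37) changed without VPA and did not pass with it, and ANKRD65 rose without (0.53) and fell with VPA (-0.57), a call lost without LGV replicate 3, FDR 0.084. The number of genes past this threshold rested on the tool and on single libraries, being 162 with DESeq2, 217 without LG replicate 2, 67 without LG replicate 3, 22 without LGV replicate 1, 2 without HG replicate 2 and 1 without each of the others.

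**Figure D5:**
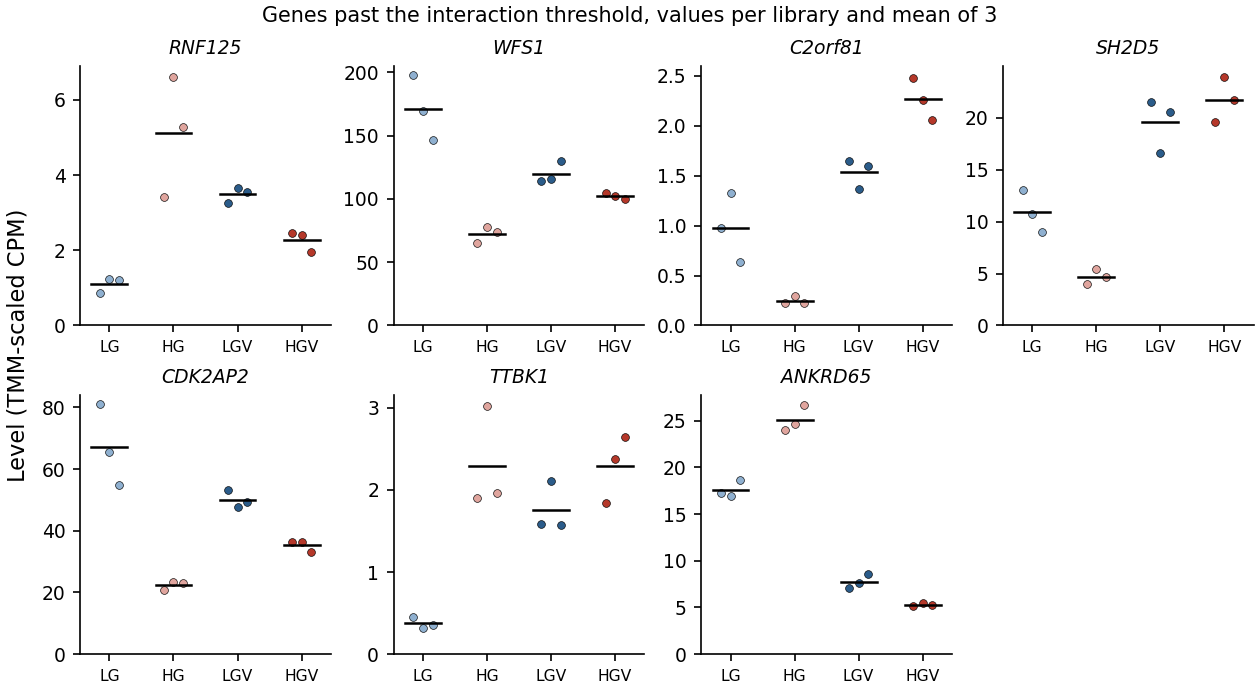
Levels in TMM-scaled CPM of the 7 genes past the interaction threshold in LG, HG, LGV and HGV, with a point for each library and a line at the mean of 3, and axes starting at 0. RNF125 rises from a mean of 1.1 to 5.11 CPM without VPA and lies at 3.5 and 2.27 CPM with it.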

How the data were processed

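RNA-seq libraries of poly(A)-selected RNA from HepG2 cells, sequenced single-end at 50 nt, were made from 12 samples in 4 groups of 3, and the 6 libraries of HGV and LGV were compared. Reads were trimmed by the authors, STAR placed them on GRCh37, and featureCounts assigned them to genes. The deposited table holds whole-number counts per gene that were not normalised. It held 16389 genes. Counts were tested as deposited with edgeR 4.0.16 (R 4.3.3, limma 3.58.1), using TMM factors, quasi-likelihood fits and the Benjamini-Hochberg adjustment over all genes tested, after genes with a mean count under 10 in the libraries of the comparison were left out. The 3 tests were HGV against LGV, HG against LG, and the glucose by VPA interaction over all 12 libraries. Levels are CPM scaled by TMM factors set over all 12 libraries, with a threshold of FDR 0.05 for a call.

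The 50 gene lists and the members were chosen with earlier results of these data known. Genes were named by a rule. It took, in each direction, the 12 largest called changes with groups that do not overlap and a log2 of the mean CPM of at least 1. The 5 smallest p-values in each direction were added. In each list it took the 4 largest called changes and any called member that went against the majority. It also took the interaction genes and glucose genes of interest to the study. Genes described as not called, and CEBPG, FGF21, MLXIPL, SMAD6, TFR2, TMPRSS6, BMP6 and CDH5, were named after their values were seen. Some genes that met the rule are not reported here. Alternatives were DESeq2 1.42.0, edgeR's likelihood ratio test, 3 other scalings, other filters, a replicate block, 1 fit of 12 libraries, an FDR of 0.01 and leaving out each library. The scripts were tested on simulated counts. Figures and motif searches used Python 3.11.15, numpy 2.4.6, pandas 2.3.3 and matplotlib 3.10.9. Positions are GRCh37 from GENCODE, which placed 15799 of the genes tested (97.5%), and promoters are RefSeq on GRCh38.p14, which covered 11393 of them.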

Additional observations from a re-analysis of the deposited data

Results flagged for a closer look

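For 7 genes the glucose by VPA interaction passed an FDR of 0.05 in edgeR's quasi-likelihood test over all 12 libraries, and for 1 of them, RNF125, it also passed with each library left out. The other 6 missed the threshold of 0.05 in 10 alternatives each (highest FDR 0.159 to 0.186). In the main fit none of these 6 passed an FDR of 0.01, while their lowest FDRs among the alternatives were 0.000118 to 0.000159. The difference, HGV against LGV less HG against LG on the log2 scale, was -2.82 for RNF125 (FDR 0.0012), 1.01 for WFS1 (0.0374), 2.52 for C2orf81 (0.0374), 1.37 for SH2D5 (0.0374), 1.07 for CDK2AP2 (0.0374), -2.23 for TTBK1 (0.0383) and -1.06 for ANKRD65 (0.0452). In the HG libraries RNF125 had 3.42, 6.61 and 5.29 CPM and in LG 0.86, 1.25 and 1.2 CPM, against 2.45, 2.4 and 1.94 CPM in HGV and 3.27, 3.67 and 3.55 CPM in LGV. TTBK1, a kinase of tau, had 1.9, 3.02 and 1.96 CPM in HG and 0.449, 0.324 and 0.357 CPM in LG, and 1.84, 2.38 and 2.65 CPM in HGV and 1.59, 2.11 and 1.57 CPM in LGV. C2orf81 had 0.222, 0.299 and 0.224 CPM in HG and 0.972, 1.32 and 0.638 CPM in LG, and 2.48, 2.26 and 2.06 CPM in HGV and 1.65, 1.36 and 1.6 CPM in LGV. Their causes were not tested.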

How the results depend on the processing

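The number of genes called between HGV and LGV was 4263 at an FDR of 0.01 (2281 higher and 1982 lower), and 4516 to 7228 when each library was left out in turn (2376 to 3841 higher, 2140 to 3387 lower), lowest without LGV replicate 3 and highest without LGV replicate 1. It was 6622 with DESeq2, 6646 with RLE factors, 7011 with the likelihood ratio test, 6583 without a filter, 6220 with at least 1 CPM in 3 libraries and 6499 in 1 fit of 12 libraries. Upper quartile factors gave 6501 (4126 higher and 2375 lower, 63.5% higher) and library size alone 6070 (3761 and 2309, 62.0%). The interaction count of 7 was 162 with DESeq2, 202 with the likelihood ratio test, 1 with library size alone, 1 at an FDR of 0.01, and 1 to 217 when a library was left out. Between HG and LG the count was 1852 at an FDR of 0.01 and 1933 to 5338 when a library was left out. The share of HGV-LGV calls also called in HG-LG was 34.5% at an FDR of 0.01. For HGV against LGV, of 4186 combinations of a named gene and a setting, 271 lost the call, 1 gained it and none reversed direction. For the interaction, 66 combinations over its 7 genes lost the call and 81 kept it. The causes of these shifts were not tested.

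With the replicate block, 7308 genes were called between HGV and LGV (6596 shared with the fit without it), 3351 between HG and LG, and 13 in the interaction. Deviations from the group means in libraries of the same number had correlations of 0.0206, 0.201 and 0.0288 across genes, so the numbers were not taken to pair the libraries. With 3 libraries a group, a common biological coefficient of variation of 0.135 and a median level of 0.672 CPM in the 3242 lowest genes, changes of low genes were least precise, their median SE being 0.38 against 0.13 in the 3242 genes of highest level.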

Other observations

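Direction varied with the level of expression. When the 16208 genes were cut into 5 groups of equal size by mean CPM, 17.5% of the lowest, 31.5%, 28.2%, 18.7% and 10.4% of the highest were called higher in HGV, and 8.64%, 10.4%, 18.5%, 27.6% and 32.4% were called lower. The group medians of the log2 fold change were 0.18, 0.25, 0.07, -0.08 and -0.17, in the same order of groups, whose median levels ran from 0.672 to 109 CPM. By annotated kind, 2841 protein-coding genes were called higher and 2825 lower out of 13116, whereas 440 lncRNAs were called higher and 152 lower out of 1672. The part of depth and scaling in these splits was not tested.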
